A study of Gallus gallus with 4 samples.

Results

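The genes described here encode parts of the neuronal cytoskeleton: the neurofilament chains NEFM and NEFL, the microtubule-binding proteins MAP1B and DCX, the tubulin-binding protein STMN3, the spectrin SPTBN1 and the dynein subunit DYNC1I1. They were taken as every gene probe whose name or description in the spot tables is one of them, which gave 14 probes of 7 genes among 42034 gene probes. NEFM is listed in the files under its older symbol NEF3, NEFL as LOC419528, SPTBN1 as LOC421216 and DYNC1I1 as LOC420571. The genes were chosen with their ratios on these arrays known, so the ratios below are a description and carry no test.

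Axons are held in shape by neurofilaments, by microtubules and by a spectrin skeleton under the membrane, and dynein carries cargo along the microtubules towards the cell body. MAP1B and DCX bind microtubules in young neurons and growing axons, STMN3 binds tubulin and favours microtubule disassembly, and neurofilaments accumulate as axons mature. The optic tectum is the midbrain target of retinal axons, and in the chick its neurons mature along a gradient that begins at its anterior and ventral part.

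Total RNA of chick embryo tecta (Gallus gallus), for which the labels name no strain, genetic change or treatment, was compared on 4 two-colour arrays, each holding 1 pool of 60 bisected tectal pieces in Cy5 and 1 pool of the 60 opposite pieces in Cy3. Posterior (Cy5) was set against anterior tectum (Cy3) at Hamburger-Hamilton stage HH35 and again at HH37, while medial and lateral tectum were compared at HH30 and HH35. Each axis and stage was 1 array with no dye swap, so no difference has a replicate check and a dye effect of a probe cannot be told apart from a difference between pools on 1 array. All ratios are log2 of Cy5 over Cy3, so a negative anteroposterior ratio means a higher signal in the anterior pool. On the mediolateral arrays the dye labels make Cy5 medial, whereas the medial over lateral ratio in the authors' deposited table runs with Cy3 over Cy5, so those ratios are given by dye with no side named.

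The arrays differed in brightness, with median foreground intensities of 194 in Cy5 and 229 in Cy3 for anteroposterior HH35 and of 99 and 107 for HH37, the dimmest. The log2 ratio of repeated control spots varied with a median SD between 0.108 and 0.131 within an array, which covers spot noise only. These control spots were above background in both channels, and the noise of dim gene probes was not measured. A probe was taken as measured where its foreground exceeded the local background by over 2.6 background SD in at least 1 channel. The 5 neuron markers with a probe (ELAVL4, SNAP25, SYT1, SYT4 and SYP, the last listed in the files as synaptoporin, SYNPR, and named SYP through its accession in RefSeq) and PAX7, a transcription factor of the dorsal midbrain that was looked up after its values were known, were well above background in both channels of all 4 arrays. Each gene below is represented by its brightest probe unless other probes are named, and signals are log2 normalised intensities of that probe in each pool.

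In the anteroposterior comparison, MAP1B, NEFM and DYNC1I1 had an anterior signal 2-fold or more above the posterior one at HH35, and 6 of the 7 genes (all but DYNC1I1) did at HH37. Over all measured features, 202 of 32145 (0.628%) were at least 2-fold higher anteriorly at HH35 and 451 of 25530 (1.77%) at HH37, and since the genes were picked from these ratios nothing is read from the difference. These counts depend on the normalisation: median centring and the authors' value table gave 676 and 794 features (2.1% and 2.47%) at HH35 and 1903 and 1674 (7.45% and 6.56%) at HH37. Averaged over all probes of a gene, 4 of the 7 genes were past 2-fold at HH37. With median centring all 7 were, DYNC1I1 then at -1.22. At least 2-fold higher posteriorly were 49 features (0.152%) at HH35 and 25 (0.0979%) at HH37, and 0 of the 7 genes at either stage. Of features at least as bright as the dimmest of the 7 genes, the share at least 2-fold higher anteriorly was 0.645% at HH35 and 6.82% at HH37, where it was 305 of 4471 bright features. The median ratio of the 7 genes was -0.57 at HH35 and -1.60 at HH37, against -0.01 and -0.02 over all measured features. On the anterior side at both stages, at any size, were 6 of the 7 genes and 34.9% of 24458 features.

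**Figure D1:**
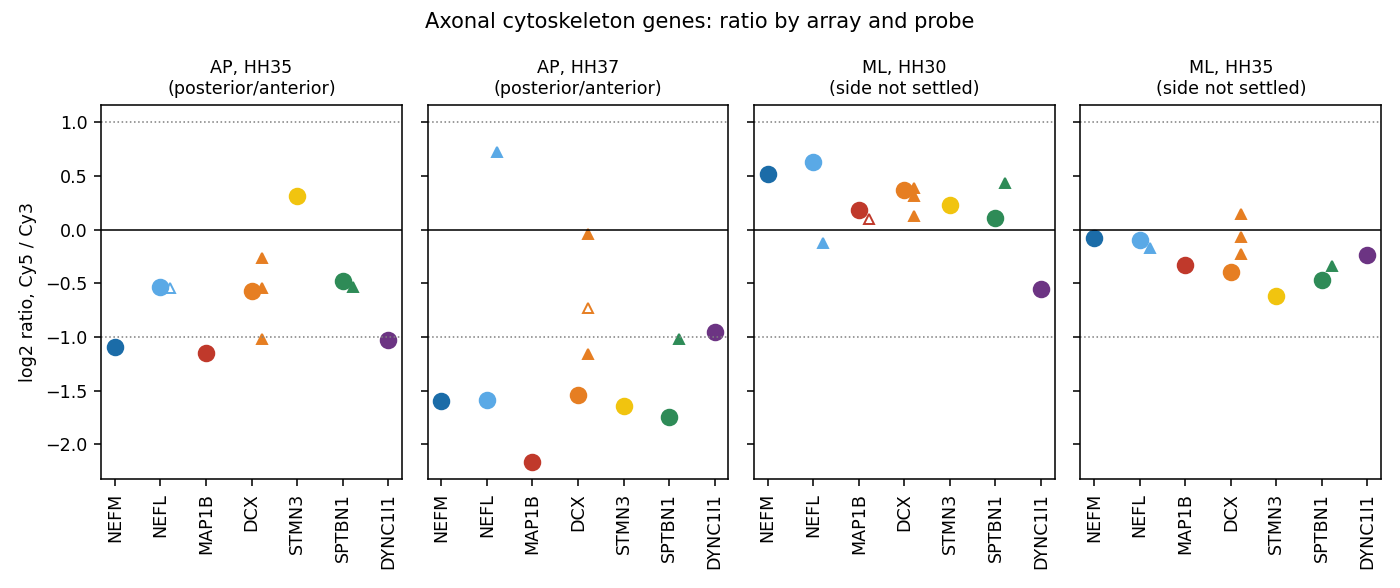
Log2 ratio of Cy5 over Cy3 (vertical axis) for each measured probe of the 7 genes on the 4 arrays (AP, anteroposterior; ML, mediolateral), with circles for the brightest probe of a gene, triangles for its other probes, open symbols where only 1 channel was well above background, and dotted lines at 2-fold. Brightest probes lie between -1.15 and 0.31 at anteroposterior HH35 and between -2.17 and -0.95 at HH37, and within 2-fold on both mediolateral arrays.

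The neurofilament genes were both higher anteriorly at both stages. NEFM, the medium chain, had signals of 12.46 in the anterior and 11.37 in the posterior pool at HH35 and of 11.50 and 9.90 at HH37. Its ratio was thus -1.09 at HH35 and -1.60 at HH37, a 2.13-fold and a 3.03-fold higher anterior signal. NEFL, the light chain that forms the core of the filament, had signals of 13.06 anteriorly and 12.53 posteriorly at HH35 and of 11.48 and 9.90 at HH37. Its ratio of -0.53 at HH35 was smaller in size than that of NEFM, whereas at HH37 it was -1.59, within 0.108, the spot SD, of the NEFM value.

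NEFL and NEFM are adjacent in the chicken annotation of assembly GRCg7b, with 0 annotated genes between them. On the mediolateral arrays both had a higher Cy5 signal at HH30, with NEFM at 12.27 in Cy5 and 11.74 in Cy3 and NEFL at 11.36 and 10.73, giving ratios of 0.52 and 0.63. At HH35 the ratios were -0.08 for NEFM (10.77 in Cy5, 10.84 in Cy3) and -0.10 for NEFL (11.50 and 11.60), both smaller in size than the spot SD of 0.131. The 2 chains therefore had similar ratios on 3 of the 4 arrays and differed on the anteroposterior array at HH35.

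A further NEFL probe, described through its likeness to bovine neurofilament L, was dim, with raw intensities between 102 and 308 in the 8 pools. It ran against the bright probe at HH37, with a ratio of 0.72, and at mediolateral HH30, with -0.12. At anteroposterior HH35 it was well above background in the anterior channel only, and the anterior signal was at least 1.39-fold higher. The mean over both NEFL probes at HH37 was -0.43, so the size of the NEFL difference at that stage rests on the bright probe.

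MAP1B had the lowest ratio of the 7 genes on both anteroposterior arrays. Its signal was 14.65 in the anterior and 13.50 in the posterior pool at HH35 and 13.42 and 11.25 at HH37. The ratio was -1.15 at HH35 (2.21-fold), where 92 of 32145 features were lower, and -2.17 at HH37 (4.50-fold), where 1 of 25530 features was lower. The files describe this probe as claustrin, an older name of chicken MAP1B. On the mediolateral arrays MAP1B had 13.64 in Cy5 and 13.47 in Cy3 at HH30, a ratio of 0.18, and 13.18 and 13.51 at HH35, a ratio of -0.33. The other MAP1B probe, matched by likeness to the mouse protein, was not well above background in either channel on 3 arrays. At mediolateral HH30 only its Cy3 channel was, with a computed ratio of 0.10, so no array gave it a ratio from both channels.

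DCX, doublecortin, which stabilises microtubules in migrating and newly differentiated neurons, had 4 probes. The brightest gave signals of 14.58 anteriorly and 14.01 posteriorly at HH35 (ratio -0.57) and of 12.99 and 11.46 at HH37 (ratio -1.54). At HH35 the other 3 probes, in order of brightness, gave -0.54, -1.02 and -0.26, all on the anterior side. At HH37 they gave -1.16, an anterior signal at least 1.66-fold higher with the posterior channel not well above background, and -0.04. The bound rests on a local Cy5 background of 135 at that spot, and without background correction its ratio was -0.08. The probe dimmest on average over the arrays, whose signals of 9.73 anteriorly and 9.70 posteriorly at HH37 exceeded the 8.99 and 8.26 of the one before it, thus showed no difference beyond spot noise there. The DCX mean over all probes was -0.87 at HH37, short of 2-fold. At mediolateral HH30 the brightest probe had 14.18 in Cy5 and 13.81 in Cy3 and all 4 probes lay between 0.13 and 0.39. At mediolateral HH35 the brightest had 13.07 and 13.46, a ratio of -0.39, and the others -0.23, 0.15 and -0.07, so the probes did not share a sign.

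STMN3, stathmin-like 3, was the 1 gene of the 7 with a higher posterior signal at HH35. Its signals were 14.83 anteriorly and 15.14 posteriorly at HH35 and 14.12 and 12.48 at HH37, so its ratio was 0.31 at the earlier and -1.64 (3.12-fold) at the later stage. On the HH35 array 35% of the pixels of its posterior spot were saturated and 0% of the anterior spot, so the posterior signal and the ratio of 0.31 there are lower bounds. On the mediolateral arrays STMN3 had 14.97 in Cy5 and 14.74 in Cy3 at HH30 (ratio 0.23) and 14.18 and 14.79 at HH35 (ratio -0.62). The latter was lower than in all but 0.541% of measured features on that array. Its size depended on the normalisation, at -0.30 with median centring and -0.61 in the authors' value table.

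SPTBN1, beta-II spectrin of the membrane skeleton, had signals of 14.09 anteriorly and 13.62 posteriorly at HH35 and of 12.81 and 11.06 at HH37. The ratio was -0.48 at HH35 and -1.75 at HH37, a 3.36-fold higher anterior signal, with 5 of 25530 features lower. Its second probe gave -0.53 at HH35 and -1.02 (2.03-fold) at HH37, the same side and a smaller size at the later stage. One further probe, listed as beta-spectrin 2, passed the detection limit in neither channel of any array. At mediolateral HH30 the brightest probe had 13.64 in Cy5 and 13.52 in Cy3 (ratio 0.11) and the second gave 0.44. At mediolateral HH35 the brightest had 12.31 and 12.78 (ratio -0.47) and the second gave -0.34.

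DYNC1I1, an intermediate chain of cytoplasmic dynein found mainly in neurons, differed least between the 2 anteroposterior stages. It had signals of 12.22 anteriorly and 11.19 posteriorly at HH35 and of 11.34 and 10.39 at HH37. The ratio was -1.03 at HH35 (2.04-fold) and -0.95 at HH37 (1.93-fold), which places it just inside and just outside the 2-fold limit. It was also the 1 gene of the 7 with a higher Cy3 signal on all 4 arrays. At mediolateral HH30 it had 10.57 in Cy5 and 11.12 in Cy3 (ratio -0.55), and at HH35 it had 11.12 and 11.36 (ratio -0.24).

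**Figure D2:**
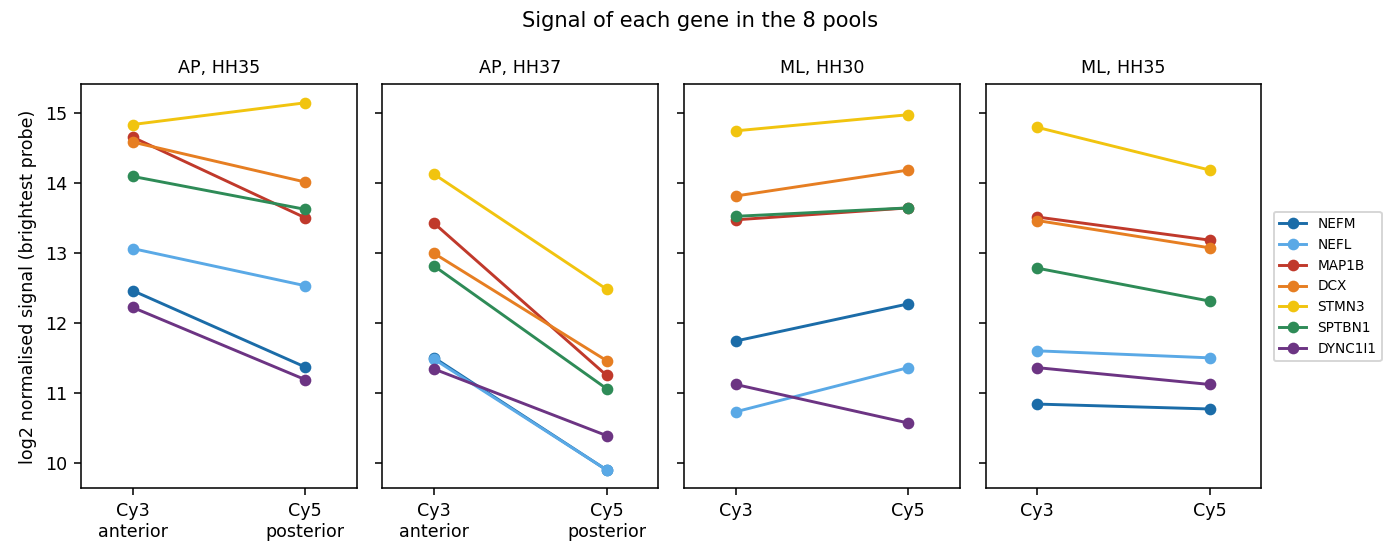
Log2 normalised signal (vertical axis) of the brightest probe of each of the 7 genes in the Cy3 and the Cy5 pool of each array, joined by a line within an array; heights of different genes are not comparable because their probes differ, and NEFM lies under NEFL at HH37. All 7 lines fall from the anterior to the posterior pool at HH37, 6 of 7 do at HH35, and 6 of 7 rise from Cy3 to Cy5 at mediolateral HH30.

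In the authors' deposited table, which gives anterior over posterior by a normalisation not given in the sources used here, MAP1B stood at 2.483 at HH35 and 3.095 at HH37, and NEFM at 2.275 and 2.591. In the same deposited table NEFL was at 1.504 and 2.578, DCX at 1.575 and 2.280, SPTBN1 at 1.477 and 2.484, STMN3 at 0.840 and 2.493 and DYNC1I1 at 2.216 and 1.687. These are the values of the brightest probes, and all 7 were on the same side as in the ratios computed here at both stages. Both sets of ratios come from the same arrays, so this is no independent check. The sizes in that table at HH37 were smaller for these probes, 3.095 against 4.50-fold for MAP1B. Other probes differed at HH37: the dim NEFL probe stood at 0.435 and the DCX probe dimmest on average at 0.863, both on the posterior side. The other DCX probes and the second SPTBN1 probe were on the anterior side.

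By the brightest probes, the ratio of 4 of the 7 genes moved anteriorly by 2-fold or more between the 2 anteroposterior stages. STMN3 differed by -1.95, the least size the saturated spot at HH35 allows, SPTBN1 by -1.27, NEFL by -1.06 and MAP1B by -1.02. DCX differed by -0.96, NEFM by -0.51 and DYNC1I1 by 0.08, the last less than the spot SD. The count of 4 depends on the processing and the probe. In the authors' value table MAP1B stood at -1.31 at HH35 and -1.63 at HH37, short of a 2-fold move. NEFL, at -0.59 and -1.37, and SPTBN1, at -0.56 and -1.31, were short of it there, whereas STMN3, at 0.25 and -1.32, was past it. With median centring DCX also passed it, from -0.42 to -1.66. The second SPTBN1 probe stood at -0.53 and -1.02, short of it. Of 15448 features with both channels above background on both arrays, 332 (2.15%) had a ratio at least 2-fold lower at the later stage and 58 (0.375%) a higher one, and their median difference was -0.118. The 7 genes were chosen with these ratios known, so their share is not read against that background. Besides MAP1B and NEFM, 11 other features made up the 13 of 24458 (0.0532%) that were at least 2-fold higher anteriorly on both arrays.

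At HH35 both axes were measured, and a dye effect that a probe shows equally on both arrays cancels when the mediolateral ratio is subtracted from the anteroposterior one. The difference was -1.01 for NEFM, -0.82 for MAP1B, -0.79 for DYNC1I1 and -0.43 for NEFL. For DCX it was -0.19 and for SPTBN1 -0.01, so that for SPTBN1 the anterior excess at HH35 was as large as its Cy3 excess on the mediolateral array. For STMN3 the difference was at least 0.93, given the saturated posterior spot. NEFM was past 2-fold in this difference, 5 other genes were not, and for STMN3 the saturation leaves this undecided. Of 19353 features, 151 (0.78%) were lower and 70 (0.362%) higher by that much. Whether the dye effect was equal on both arrays was not tested, and no mediolateral array at HH37 was analysed here.

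**Figure D3:**
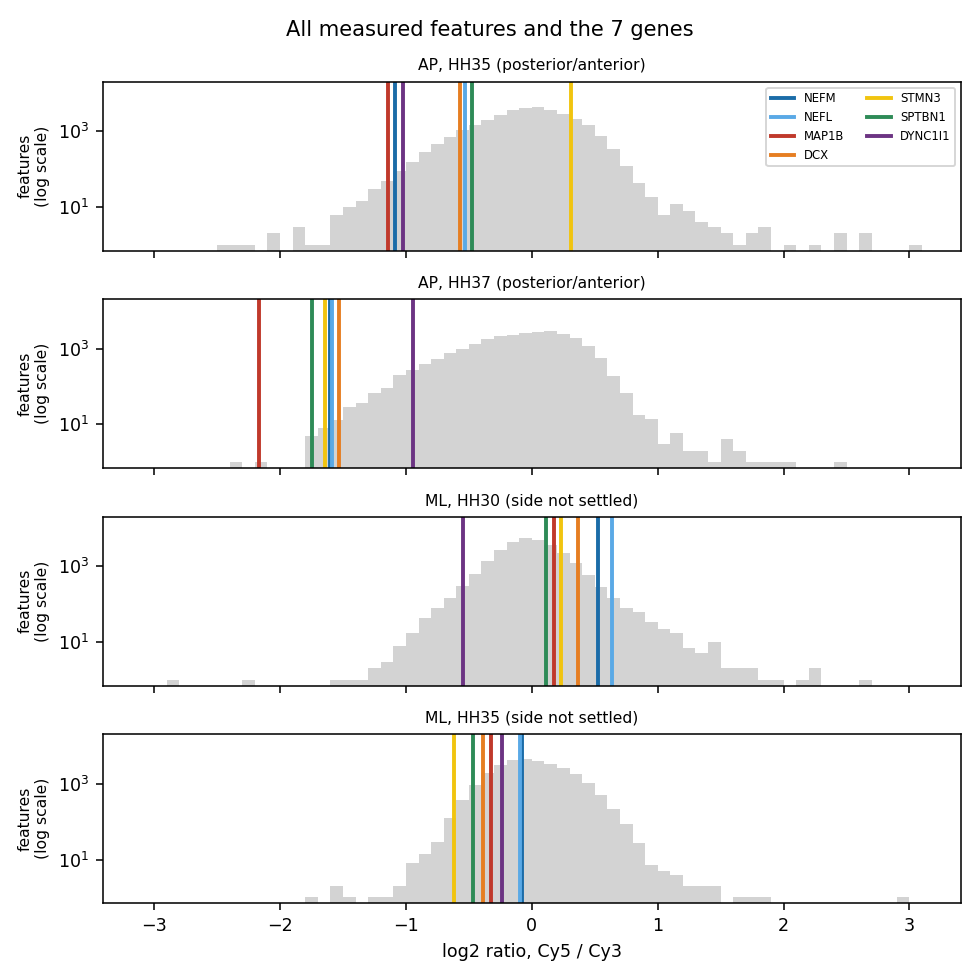
Number of measured features (vertical axis, log scale) by log2 ratio of Cy5 over Cy3 in bins of 0.1 on each array, with a coloured line at the value of each of the 7 genes. At HH37, 6 lines lie between -2.17 (MAP1B) and -1.54 (DCX), where at most 0.0901% of features were lower, and DYNC1I1 lies at -0.95 with 2.25% lower; on the mediolateral arrays the lines lie between -0.62 and 0.63.

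On the mediolateral arrays 6 of the 7 genes lay on the Cy5 side at HH30 and all 7 on the Cy3 side at HH35. The median ratio of the 7 was 0.23 at HH30 and -0.33 at HH35, against -0.02 on both over all measured features. No gene of the 7 reached 2-fold on either array, where 76 of 28315 features (0.268%) were at least 2-fold higher in Cy5 and 18 (0.0636%) in Cy3 at HH30, and 19 of 28634 (0.0664%) and 8 (0.0279%) at HH35. The balance of these counts depends on the processing: in Cy5 and Cy3 they were 188 and 207 at HH30 and 62 and 132 at HH35 with plain background subtraction, and 259 and 648 and then 261 and 457 in the authors' value table. The ratio of NEFM, NEFL, MAP1B, DCX, STMN3 and SPTBN1 differed from HH30 to HH35 by -0.60, -0.73, -0.50, -0.76, -0.85 and -0.59, in that order, and that of DYNC1I1 by 0.31. Of 25331 features measured on both arrays, 21.6% were on the Cy5 side at HH30 and on the Cy3 side at HH35, so the change of side alone was common. The central 95% of differences over 17698 features ran from -0.70 to 0.55. By the brightest probes, that range holds 4 of the 7 genes (NEFM, MAP1B, SPTBN1 and DYNC1I1) and leaves NEFL, DCX and STMN3 below it. Averaged over all probes, NEFL stood at 0.26 at HH30 and -0.13 at HH35 and DCX at 0.30 and -0.13. Both differences of these means lie inside the range. The genes were chosen with ratios on these arrays known, so their place in that range is a description and no test. A change of at least 2-fold was reached by 0 of the 7 genes, against 105 features (0.593%) lower and 18 (0.102%) higher at HH35.

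Levels could not be followed over the stages. The same probe gave a mean signal of both pools that was higher on the anteroposterior than on the mediolateral array at HH35 for all 7 genes, by 1.31 for SPTBN1, 1.25 for NEFL, 1.11 for NEFM, 1.03 for DCX, 0.73 for MAP1B, 0.50 for STMN3 and 0.47 for DYNC1I1, although both arrays sampled tecta of the same stage. Over 22497 features measured on all arrays, 16.4% were at least 2-fold higher and 17.2% at least 2-fold lower on the anteroposterior array. From HH35 to HH37 on the anteroposterior arrays the mean signal of the 7 genes differed by between -0.84 for DYNC1I1 and -2.11 for NEFL. Of all features there, 25.2% were lower and 22.3% higher by at least 2-fold. From HH30 to HH35 on the mediolateral arrays it differed by between -1.20 for NEFM and 0.51 for NEFL, a range of the same order as the difference between arrays of 1 stage.

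Other genes of the same structures were taken from 7 lists of 81 genes, of which 50 had a named probe. The lists were drawn up with earlier results of these data known, so their counts are a description and no further support. On the anteroposterior array at HH35, 36 of 49 measured genes were on the anterior side, 1 of them past 2-fold, with a median of -0.23, where 51.6% of all measured features were on that side and 0.628% past 2-fold. At HH37, 41 of 46 were on the anterior side, 13 of them past 2-fold, with a median of -0.80, and 0 were past 2-fold on the posterior side. At that stage 52.5% of all measured features and 49.7% of the bright ones were on the anterior side, with 1.77% and 6.82% past 2-fold. At mediolateral HH30, 29 of 48 had a higher Cy5 signal (median 0.03) and at HH35, 38 of 49 a higher Cy3 signal (median -0.18), none past 2-fold on either, where 47% of all measured features were higher in Cy5 at HH30 and 52.6% in Cy3 at HH35.

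Among structural microtubule-associated proteins 6 of 6 measured were anterior at HH37, with a median of -1.05 against -0.18 at HH35. MAP2, the microtubule-associated protein of dendrites, stood at -0.26 at HH35 and -1.63 at HH37. MAP1A, the relative of MAP1B that prevails in mature neurons, stood at -0.10 and -1.08, the plus-end binding protein MAPRE1 at -0.27 and -1.18 and the autophagy protein MAP1LC3B, which also associates with MAP1 proteins, at -0.38 and -1.02. Growth cone and axon surface genes had a median of -0.06 at HH35 and -0.95 at HH37, with 8 of 9 anterior at the later stage. Of those 9, CNTN2 and DPYSL4 were above background in the anterior channel only, and the bound of 0.85 for DPYSL4 leaves its side open. DPYSL2, a tubulin-binding protein of growth cones, stood at -0.23 and -1.60, the membrane protein BASP1 at 0.29 and -1.28, DPYSL3 at 0.15 and -1.16 and the axonal adhesion protein CNTN1 at -0.81 and -1.18. CRMP1, a relative of DPYSL2, was at -0.82 and -0.95 and the adhesion protein NRCAM at -0.41 and -0.90.

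Of the cytoplasmic dynein and dynactin genes 9 of 13 were anterior at HH35 and 12 of 13 at HH37, with medians of -0.36 and -0.29. The other dynein intermediate chain, DYNC1I2, stood at -0.96 and -0.24, against -1.03 and -0.95 for DYNC1I1. The dynein heavy chain DYNC1H1 was at 0.04 and -1.02 and the dynactin subunit DCTN1 at 0.13 and -1.28, whereas the light chain DYNLRB1 was at -1.05 and 0.02. DYNC1LI2 at -0.87 and -0.83, the dynactin filament protein ACTR1A at -0.80 and -0.78 and the light chain DYNLL2 at -0.61 and -1.01 were anterior at both stages. Genes of dynein and of dynactin thus did not share 1 pattern over the 2 stages, each read from its brightest probe on 1 array per stage.

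The spectrin and ankyrin list had 6 of 7 members anterior at both stages, with medians of -0.29 and -0.85. SPTAN1, the alpha chain that pairs with SPTBN1, stood at -0.59 and -0.99, ankyrin ANK2 at -0.32 and -0.85, the spectrin-actin linker EPB41 at -0.02 and -0.97 and its relative EPB41L1 at -0.64 and -1.03. Both measured stathmins besides STMN3 were anterior at both stages, STMN1 at -0.55 and -0.40 and the neuronal STMN2 at -0.27 and -1.05. In the doublecortin list 4 of 5 were anterior at both stages, with PAFAH1B1, the lissencephaly protein that regulates dynein, at -0.92 and -0.94, DCLK2 at -0.59 and -0.41 and DCLK1 at -0.10 and -0.83. NDE1, which binds PAFAH1B1 and acts in dividing progenitors, was posterior, at 0.87 and 0.42. Of intermediate filament genes other than neurofilaments 4 had a named probe, and none reached 2-fold. Nestin, NES, the filament protein of progenitors, was at 0.63 and -0.62, the lamin LMNB2 at -0.14 and -0.99 and LMNB1 at -0.27 and -0.28.

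**Figure D4:**
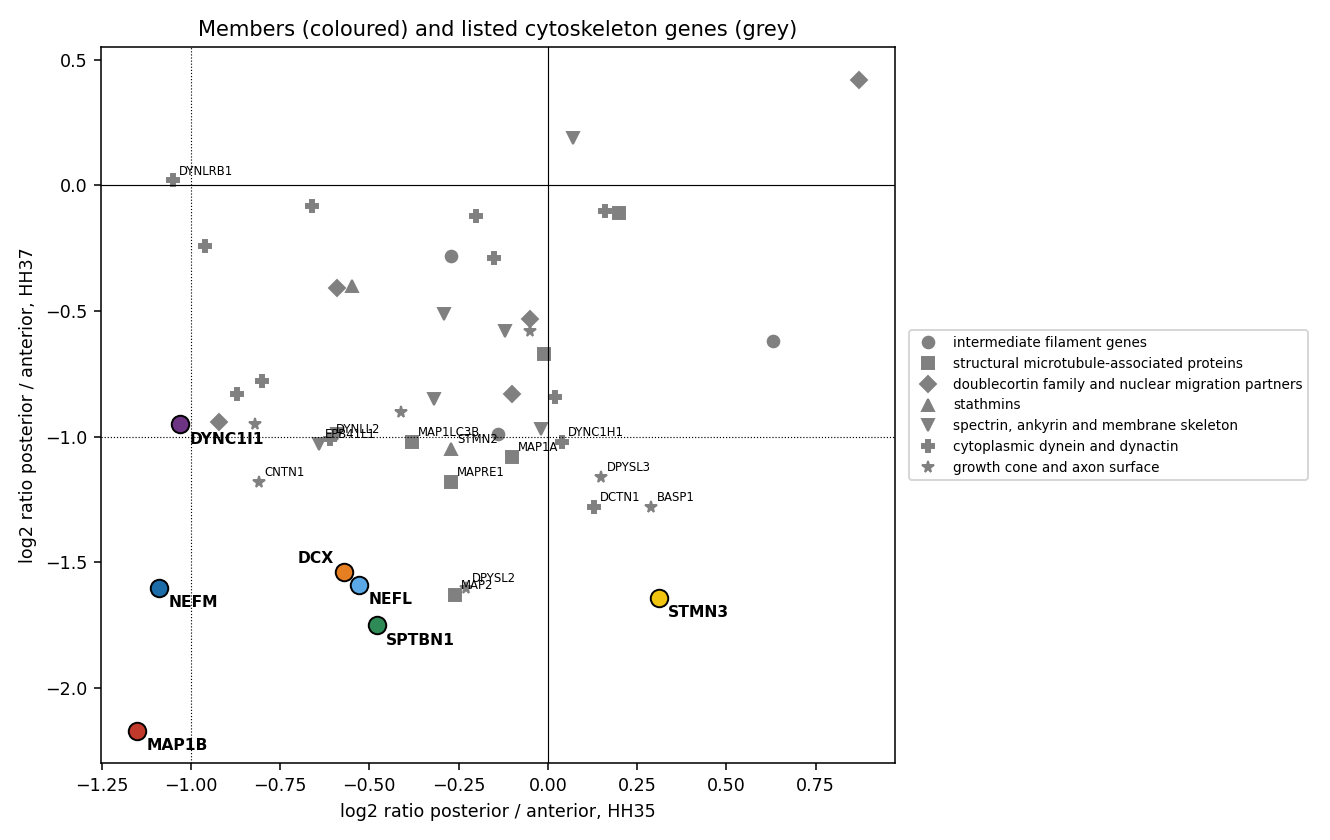
Log2 ratio of posterior over anterior at HH35 (horizontal axis) and HH37 (vertical axis) for the 7 genes (coloured) and the 42 listed genes with both channels above background at both stages (grey, marker shape by list), with dotted lines at 2-fold. MAP1B and NEFM are the 2 points past both dotted lines, and STMN3, BASP1, DPYSL3, DCTN1 and DYNC1H1 lie to the right of 0 at HH35 and past 2-fold anteriorly at HH37.

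The genes with the most similar ratios over the 4 arrays were looked for among 6755 genes with a symbol that were measured on all 4. The 7 genes themselves were left out of this search, so others of the 7 may lie nearer than the genes named. Likeness was the root mean square difference of the log2 ratios. Nearest to MAP1B were SYT1 (0.428), SEPTIN7 (0.438), PPP3CA (0.439), MYO5A (0.464) and OXCT1 (0.464). Nearest to NEFM were MYO5A (0.272), OXCT1 (0.307), ELMOD1 (0.349), CNTN1 (0.357) and EPB41L1 (0.361). Outside the 7 genes, the nearest gene to MAP1B was thus further away than all 5 of these neighbours of NEFM. At HH37 MAP1B stood at -2.17 and its 5 named neighbours between -1.48 and -1.31.

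Markers of the cell types that the pools could hold were read on the same arrays, and their part in the ratios of the 7 genes was not tested. Of all measured features, 51.6% were anterior at HH35 and 52.5% at HH37. On the mediolateral arrays 47% were on the Cy5 side at HH30 and 52.6% on the Cy3 side at HH35. All 5 neuron markers were anterior at both stages, with medians of -0.91 at HH35 and -0.67 at HH37, and their summed signal was 45953 in the anterior and 29585 in the posterior pool at HH35 and 19192 and 8277 at HH37. Their ratios lay on the Cy5 side for 4 of 5 at mediolateral HH30 and on the Cy3 side for 5 of 5 at HH35, with summed signals of 30572 in Cy5 and 27242 in Cy3 and of 15235 and 22829. Of 13 radial glia and progenitor markers, 10 were posterior at HH35, where 48.4% of all measured features were, with a median of 0.28. At HH37 7 of 11 measured were anterior with a median of -0.38, HES5 and TOP2A being below background. Of these 11, 9 had both channels above background. SOX2 and PAX6 had the anterior channel only, at least 1.3-fold and 1.2-fold higher, so that median holds 2 ratios that are bounds. The summed signals of the 13 were 28905 anteriorly and 30137 posteriorly at HH35 and 20738 and 16354 at HH37. In pooled tissue, fewer neurons and less of an mRNA per neuron cannot be told apart.

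Blood markers were level at HH35 and anterior at HH37. The 3 with a named probe had summed signals of 45437 anteriorly and 46434 posteriorly at HH35, and of 24694 and 10050 at HH37, where the haemoglobin genes HBBA and HBA1 stood at -1.68 and -1.33 and HBE1 at 0.43. At mediolateral HH30 the sums were 110322 in Cy5 and 92177 in Cy3, and at HH35 18790 and 31242. Oligodendrocyte markers were few and dim, with 3 on the array and summed signals between 597 and 1168 over all pools, and MBP, myelin basic protein, was the 1 of them past 2-fold, at 1.18 on the posterior side at HH35. Endothelial markers had medians of -0.01 and -0.35 at the 2 anteroposterior stages, with sums between 3155 and 5962 over all pools. At HH37 only 3 of the 7 endothelial markers were above background in both channels. The median there also holds CDH5 and FLT1, which were above background in the anterior channel only. Those of meninges and mesenchyme had medians of 0.14 and 0.10, while at mediolateral HH30 4 of 5 were higher in Cy3, with a median of -0.47 and sums of 23838 in Cy5 and 34422 in Cy3, and at HH35 the median was 0.03 with sums of 5168 and 4791. Those of microglia and leukocytes had medians of 0.22 and -0.03 at the 2 anteroposterior stages, each over 3 genes of which 2 had both channels above background. The remaining gene, PTPRC at HH35 and C1QA at HH37, was above background in the anterior channel only. Endothelial KDR and TEK, mesenchymal DCN and LUM and the leukocyte gene PTPRC were below background in both channels at HH37.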

How the data were processed

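Per the labels' protocols, 60 pieces were pooled per channel and RNA was extracted with Trizol. Per the submitters' processing notes the software was Agilent Feature Extraction, yet the deposited spot tables have GenePix columns. They hold, per the file headers, the intensity of each spot, not normalised, with the percent of saturated pixels and a signal-to-noise score. A ratio for every probe is in the authors' deposited table, and the deposited value table is its log2; its normalisation is not given in the sources used here. Turned to Cy5 over Cy3, its r with the present ratios lay between 0.724 and 0.848 over 41824 probes.

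Here, background was corrected by normexp (offset 50) on mean foreground and median background. Ratios were normalised by loess (span 0.3) with limma 3.58.1 in R 4.3.3, giving control spots weight 0. These steps were tried on simulated spots with equal numbers of higher and lower ratios. Most features past 2-fold at HH37 were anterior, so the simulation cannot speak for the normalisation of that array. Pool signals were set on 1 scale by Aquantile. A ratio with 1 channel under the limit of 2.6 background SD is a lower bound of the fold. Side counts and medians hold such ratios at their computed value. No test was run, since each group is 1 array; features at 2-fold or more were counted. The limits on precision come from that number of arrays.

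Names came from the files and a RefSeq table of GRCg7b, used for names and gene order only, and covered 9889 probes of 8437 genes; 40 probes with conflicting names stayed unnamed. The brightest probe stood for a gene, leaving 40582 features. Members, lists and rules were chosen with earlier results of these data known. Listed genes were named where past 2-fold on any array or among the 4 of a list with the largest mean anteroposterior ratio, 30 genes. The 5 nearest genes of MAP1B and of NEFM, members left out, were also named. Alternatives covered background, normalisation, source of values, filter, choice of probe and dye; the background of bright features was added after the values were seen. Tables and figures were made with pandas 2.3.3, numpy 2.4.6 and matplotlib 3.10.9 in Python 3.11.15.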

Additional observations from a re-analysis of the deposited data

Results flagged for a closer look

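Several ratios changed side between the stages of an axis. With 1 array per stage none of these differences was tested. On the anteroposterior arrays the log2 ratio at HH37 minus that at HH35 was -1.95 for STMN3 (a least size, since its posterior spot at HH35 was partly saturated), -1.57 for BASP1, -1.41 for DCTN1, -1.31 for DPYSL3, -1.25 for NES and -1.06 for DYNC1H1, each from the posterior to the anterior side. For DYNLRB1 it was 1.06, from the anterior side to 0.02, a value within spot noise of 0. DYNC1H1, at 0.04 at HH35, also started within spot noise of 0. On the mediolateral arrays the ratio at HH35 minus that at HH30 was -0.85 for STMN3, -0.76 for DCX, -0.73 for NEFL, -0.60 for NEFM, -0.59 for SPTBN1 and -0.50 for MAP1B, each from the Cy5 to the Cy3 side. NEFM and NEFL ended within spot noise of 0, at -0.08 and -0.10, and SPTBN1 started there, at 0.11. These changes of side are those of the brightest probes. The dim NEFL probe was at -0.12 at HH30, on the Cy3 side and smaller in size than the control spot SD of 0.129. At HH35, 1 DCX probe was still at 0.15. The second SPTBN1 probe started at 0.44, beyond spot noise.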

How the results depend on the processing

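All 203 alternative values of the 7 genes kept their sign, and 62 of 66 alternatives to a ratio past 2-fold stayed past it. The exceptions were MAP1B and DYNC1I1 at anteroposterior HH35 with the mediolateral ratio subtracted (-0.82 and -0.79), and NEFL and DCX at HH37 as means of all probes (-0.43 and -0.87). The genes were chosen from these ratios, so this is no further support. Both tallies also hold values that could not change. The brightest probes passed both filter settings, which therefore repeat the main values. The mean over probes could not move NEFM, STMN3 and DYNC1I1, which have 1 probe each. The subtraction left 1 gene past 2-fold at HH35 and a median of -0.43. The HH37 median was -1.88 with median centring, -1.32 in the value table and -1.39 over all probes, and the HH30 median was 0.41 with median centring. The count of all features past 2-fold moved far more. Higher in Cy3 and in Cy5, in that order, it was 569 and 114 with plain subtraction, 676 and 30 with median centring and 794 and 286 in the value table at anteroposterior HH35. At HH37 it was 922 and 159, 1903 and 13, and 1674 and 584 in the same order of settings. At mediolateral HH30 it was 207 and 188 with plain subtraction and 648 and 259 in the value table, with 30 in Cy3 under median centring, and at HH35 132 and 62 with plain subtraction and 457 and 261 in the value table. Among bright features alone, fewer by construction, it was 15 and 0 at anteroposterior HH35, 3 in Cy5 at HH37, 3 and 8 at HH30 and 2 and 3 at mediolateral HH35. The cause of the other shifts was not tested. No paired analysis was possible because each group is 1 array and the 2 stages of an axis are different groups, which also left no replicate to leave out.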
